A study of Mus musculus with 564 samples.

Results

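Ulixertinib, GDC0994 and Encorafenib are clinical kinase inhibitors of the RAS-RAF-MEK-ERK cascade, and they gave 27 of the 564 H3K27ac ChIP-seq libraries of the series. Their libraries were chosen by name, as every column of the deposited table that starts with 1 of the 3 compound names. Ulixertinib (9 libraries) and GDC0994 (10 libraries) target the ERK kinases, and Encorafenib (8 libraries) targets BRAF. All cells were wild type primary bone marrow-derived macrophages of male C57/BL6 mice aged 6-8 weeks. Each culture was held with DMSO or with an inhibitor for 1 h, and was then left unstimulated (UT) or received LPS or IL-4, both at 10 ng/mL, for 30 min, 1 h, 2 h or 4 h. H3K27ac, an acetylated histone residue found at active promoters and enhancers, was counted over 59190 regulatory elements as normalised read counts. Each inhibitor was used at the EC50 that a chemical proteomics assay gave for its intended target, so the doses of the compounds differ, and their values are set side by side below without a test between them. Both ERK inhibitors had the ERK kinases as their intended target. For Encorafenib the study took IRAK1 as the intended target, so its dose was not set by BRAF.

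The comparison groups were DMSO (18 libraries, 2 per condition), the MEK inhibitors Selumetinib, Pimasertib and Refametinib (27 libraries), and 52 other inhibitors (492 libraries). Each of the 3 compounds had 1 library per condition, except that GDC0994 had 2 UT libraries and Encorafenib had no 4 h LPS library, and some other inhibitors had repeated or missing conditions. The replicate error was therefore taken from the spread between compounds where the compound was the unit. Where the library was the unit, as in all tests against DMSO, it was the spread of libraries within compounds after time was fitted. Libraries of 1 compound at different times thus stood in for replicates in those tests. No source says whether libraries came from separate mice, so p-values measure the spread between these libraries.

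In the cascade, active RAS recruits RAF kinases, RAF phosphorylates MEK1/2, and MEK1/2 phosphorylate the ERK kinases. Active ERK switches on a short list of genes that are read as its output, among them its own brakes, the DUSP phosphatases and the SPRY and SPRED proteins, and the ETS factors Etv1, Etv4 and Etv5. In macrophages the CSF1 receptor keeps ERK active during growth, and LPS activates it through the kinase TPL2, encoded by Map3k8. RAF inhibitors can raise ERK activity in cells with wild type RAF, which is known as paradoxical activation.

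The libraries differed in how far strong elements stood above weak ones, and this is given first because it touches the comparisons with DMSO. The contrast was taken as the ratio of the median value of the strongest 10% of elements to that of the weakest 10%. Elements were ranked by their mean over all libraries of the series. Its median was 75.1 over the DMSO libraries, 18.9 for Ulixertinib, 12.9 for GDC0994, 29.9 for Encorafenib, 31.5 for the MEK inhibitors and 17.3 for the other inhibitors. All 27 member libraries, at 6.44 to 48, lay below all 18 DMSO libraries, at 53 to 134. The Encorafenib LPS 1 h and 2 h libraries were the lowest of the members, with contrasts of 6.44 and 7.03, whereas its LPS 30 min library had 38.9. The total value per member library was 6378016 to 7923140, which is a scaled total and not a depth. Where the spacing between values showed what 1 read was worth, the reads in elements came to 1040000 to 5840000 (22 of 27 member libraries, median 3120000), and the lowest was Encorafenib LPS 1 h. The 2 GDC0994 UT libraries correlated at r = 0.858 across elements, against 0.959 to 0.982 for the DMSO pairs. Macrophage marker genes were measured at 49 elements of 7 of 8 listed genes and held 0.17 to 0.27% of each member library's value, against 0.239 to 0.299% in DMSO. The T cell list (2 elements), the B cell list (6) and the epithelium list (10) held at most 0.00505%, 0.0111% and 0.0197% of a member library. The neutrophil list (5 elements) held 0.000804 to 0.005% in the members and 0.000182 to 0.000844% in DMSO, and the fibroblast list (3 elements) 0.000338 to 0.00173% and 3.31e-05 to 0.000438%. The other inhibitors had 0.000576 to 0.00673% and 0.000231 to 0.00337% in these lists, so the members lay inside their range. A change in cell number cannot be told apart from a change in signal per cell in such bulk libraries.

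**Figure D1:**
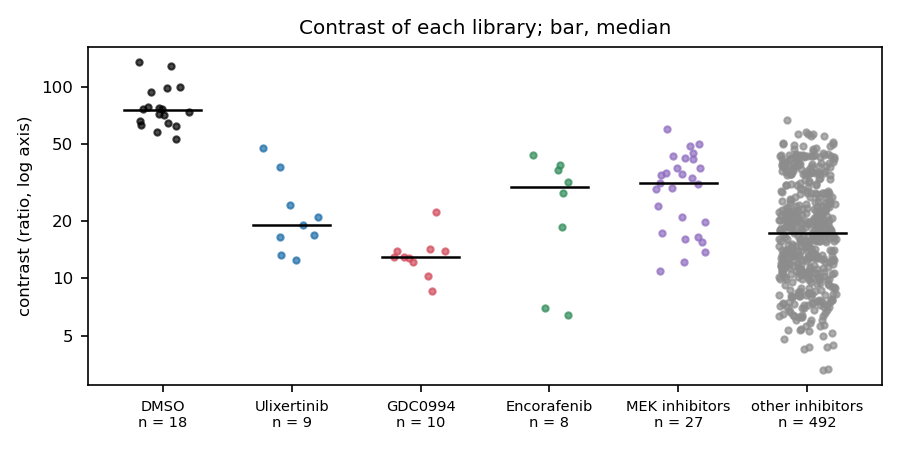
Contrast of each library (ratio, log axis) for DMSO, the 3 compounds, the MEK inhibitors and the other inhibitors, with 1 point a library and a bar at the median. The DMSO libraries, at 53 to 134, lie above all libraries of the 3 compounds, and 2 Encorafenib libraries lie at 6.44 and 7.03.

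The results turn on the promoters of the ERK output genes, and 8 of the 17 listed genes have a 300-base promoter (250 bases before to 50 after the start, RefSeq, GRCm38.p6) that lies wholly inside the element measured. Shown are 4 of the 8, those of the phosphatase gene Dusp6, the ETS factor genes Etv5 and Etv1, and the RAS inhibitor gene Spred2. Capitals mark a match to the variant ETS core CAGGAA on either strand, found in 3 of the 8 promoters (Spred1, Etv1 and Ier3) and in 30.6% of all 32851 promoters. The ETS core CCGGAA, the AP-1 site TGANTCA and the cAMP response element TGACGTCA were in none of the 8 promoters, and in 14.9%, 7.81% and 1.79% of all promoters, also on either strand.
Dusp6, chr10:99262981-99263280, plus strand: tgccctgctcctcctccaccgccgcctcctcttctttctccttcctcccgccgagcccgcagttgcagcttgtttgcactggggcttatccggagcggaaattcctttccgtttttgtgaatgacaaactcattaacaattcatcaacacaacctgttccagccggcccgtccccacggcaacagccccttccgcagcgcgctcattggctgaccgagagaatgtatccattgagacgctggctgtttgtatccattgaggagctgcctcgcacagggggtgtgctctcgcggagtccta
Etv5, chr16:22439521-22439820, minus strand: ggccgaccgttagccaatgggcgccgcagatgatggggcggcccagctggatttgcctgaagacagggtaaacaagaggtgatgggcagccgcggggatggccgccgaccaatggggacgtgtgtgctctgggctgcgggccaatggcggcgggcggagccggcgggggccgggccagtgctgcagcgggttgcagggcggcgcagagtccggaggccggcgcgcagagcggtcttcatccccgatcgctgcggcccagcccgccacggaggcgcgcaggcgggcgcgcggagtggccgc
Etv1, chr12:38779832-38780131, plus strand: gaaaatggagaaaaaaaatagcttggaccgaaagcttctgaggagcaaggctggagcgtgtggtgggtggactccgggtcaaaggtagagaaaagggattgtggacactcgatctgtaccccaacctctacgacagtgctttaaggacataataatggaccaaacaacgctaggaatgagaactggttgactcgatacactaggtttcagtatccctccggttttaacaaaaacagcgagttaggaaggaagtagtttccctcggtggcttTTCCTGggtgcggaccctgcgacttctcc
Spred2, chr11:19924192-19924491, plus strand: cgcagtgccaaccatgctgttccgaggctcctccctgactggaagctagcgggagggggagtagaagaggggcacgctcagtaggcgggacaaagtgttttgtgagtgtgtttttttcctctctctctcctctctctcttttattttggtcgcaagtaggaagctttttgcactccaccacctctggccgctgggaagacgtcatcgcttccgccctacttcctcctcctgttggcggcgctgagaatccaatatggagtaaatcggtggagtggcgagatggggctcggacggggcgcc

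The mean of both ERK inhibitors did not pass the test against the other inhibitors at any ERK output promoter, and at some promoters the 2 compounds deviated in opposite directions. Of the 17 listed genes, 16 had a promoter element (Spry2 had none). The comparison set the mean of Ulixertinib and GDC0994 against the 52 other inhibitors, each compound averaged over its conditions, with limma and Benjamini-Hochberg adjustment over all 59167 elements tested. It called 0 elements (0%) at an adjusted p under 0.05, and 631 (1.07%) had an unadjusted p under 0.05. The spread between the other inhibitors includes any effects of their own targets, so 0 calls do not show that an effect is absent. The set of all elements near ERK output genes (104 elements) had 0 called and a median log2 difference of -0.05, with 70.2% of its elements below zero, against -0.01 and 52% over all elements.

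At Dusp6, which encodes the ERK phosphatase most directly under ERK control, H3K27ac was lower than unstimulated at every LPS time and at 2 h and 4 h of IL-4, in all 3 compounds and in DMSO (promoter element chr10:99260458-99264082). With Ulixertinib the normalised read count was 762 unstimulated, 539, 449, 264 and 338 at 30 min, 1 h, 2 h and 4 h of LPS, and 943, 827, 408 and 386 at the same times of IL-4. With GDC0994 it was 879 and 826 unstimulated, 595, 362, 210 and 232 after LPS, and 687, 627, 308 and 393 after IL-4. Encorafenib gave 1030 unstimulated, 657, 417 and 280 at 30 min, 1 h and 2 h of LPS, and 1032, 958, 632 and 549 after IL-4. DMSO cells had 955 and 1096 unstimulated, 569 and 553, 360 and 402, 250 and 251, and 329 and 390 over the LPS times, and 944 and 1002, 890 and 892, 879 and 744, and 541 and 511 over the IL-4 times. After LPS the 3 compounds lay inside the range of the other inhibitors, whose medians were 497.5, 417, 273 and 382. At 2 h of IL-4 both ERK inhibitors and Encorafenib were below both DMSO libraries, and so was the median of the other inhibitors (839.5, 679, 490 and 434 over the IL-4 times). The ERK inhibitors differed from the other inhibitors at Dusp6 by -0.11 on the log2 scale (SE 0.11, 95% CI -0.32 to 0.1, adjusted p = 1).

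The IL-4 2 h gap to DMSO recurred at Etv5, Spred2 and Ccnd1, and the other inhibitors shared it there. At Etv5 (chr16:22438840-22440824) the 2 h value was 166 with Ulixertinib, 165 with GDC0994 and 298 with Encorafenib, against 325 and 322 in DMSO and a median of 189.5 in the other inhibitors. At Spred2 (chr11:19923288-19926965) it was 113, 112 and 279, against 313 and 279 in DMSO and a median of 178. Ccnd1, the cyclin D1 gene through which mitogens act on the cell cycle (chr7:144938986-144942537), had 232, 255 and 329, against 519 and 479 in DMSO and a median of 276. In each of the 3 genes both ERK inhibitors lay below both DMSO libraries at this time but inside the range of the other inhibitors. Encorafenib equalled the lower DMSO library at Spred2 and lay below both at Etv5 and Ccnd1. The log2 differences of the ERK inhibitors from the other inhibitors over all conditions were 0 at Etv5 (95% CI -0.28 to 0.27), -0.12 at Spred2 (-0.43 to 0.19) and -0.08 at Ccnd1 (-0.41 to 0.26), and none passed the test.

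**Figure D2:**
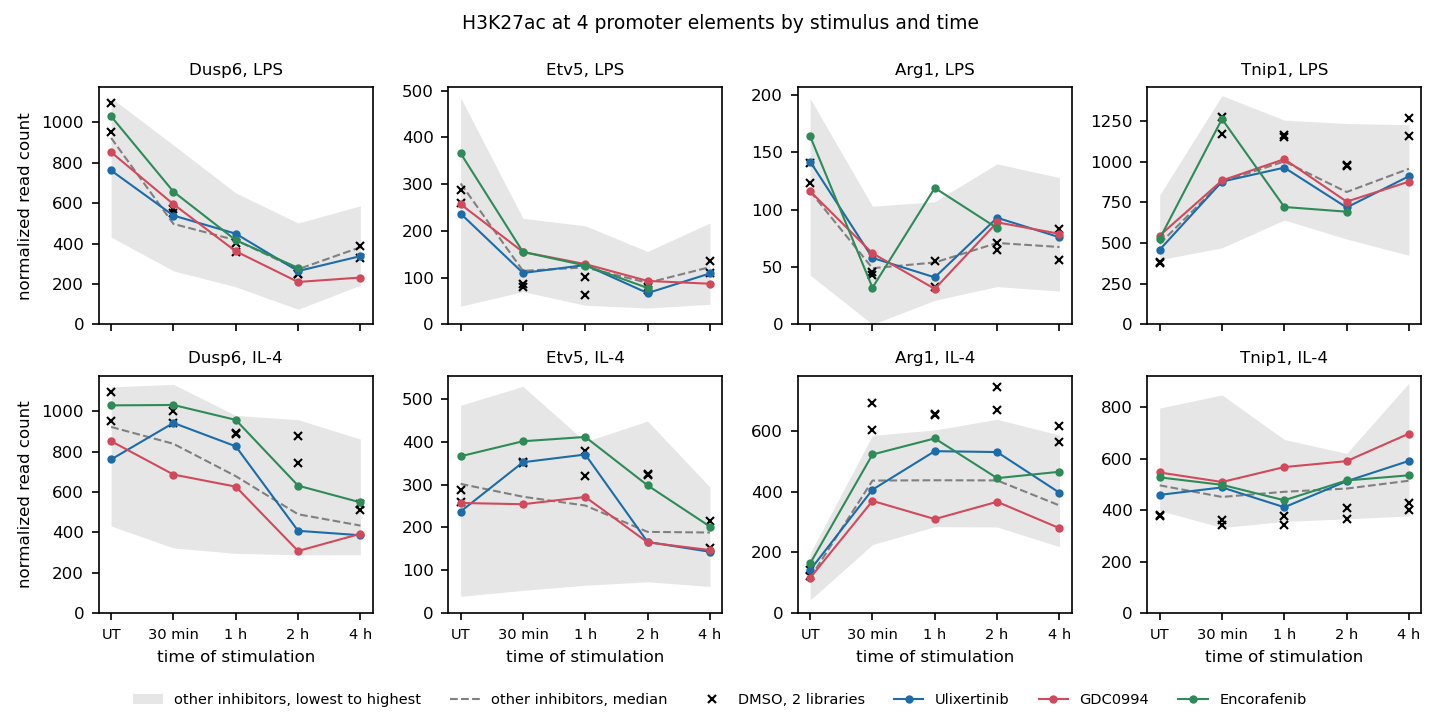
Normalised read count (y axis) against time of stimulation with LPS (upper row) or IL-4 (lower row) at the promoter elements of Dusp6, Etv5, Arg1 and Tnip1, with lines for the 3 compounds (the 2 GDC0994 UT libraries averaged), crosses for DMSO, and the range and median of the other inhibitors in grey. At Dusp6 and IL-4 2 h the DMSO crosses stand at 879 and 744, and Ulixertinib and GDC0994 at 408 and 308.

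The remaining output promoters gave differences of the same small size. Egr1, an immediate early factor, was lowest at -0.2 (95% CI -0.39 to 0, unadjusted p = 0.051, adjusted p = 1). Its value after 30 min of LPS was 301 with Ulixertinib and 367 with GDC0994. DMSO had 330 and 373 there, and the median of the other inhibitors was 294.5. Of the 8 LPS libraries of the ERK inhibitors 3 were below the other inhibitors at Egr1 (-1.42 to 0.42), and of the 8 IL-4 libraries 5 (-0.35 to 0.6). Without either ERK inhibitor in turn the Egr1 difference was -0.32 to -0.07. Spry4, which encodes an inhibitor of RAS signalling, was highest at 0.16 (-0.14 to 0.46). The other members between them ran from -0.14 at Spry1 to 0.02 at Myc. Values this close to zero took both signs at 8 of the 16 promoters (Etv4, Etv5, Myc, Spred1, Etv1, Phlda1, Fosl1 and Ccnd1). This was over all settings run, which include changes of processing and leaving out either ERK inhibitor. The ERK inhibitors were also compared with the other inhibitors separately after LPS, after IL-4 and unstimulated, and each comparison called 0 of 59167 elements (0%) in limma, with 844, 687 and 580 elements at an unadjusted p under 0.05. The difference between the LPS and the IL-4 effect called 0 elements (0%), with 722 at an unadjusted p under 0.05.

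The individual compounds varied around zero at these promoters. Ulixertinib lay above the mean of the other inhibitors at 11 of 16 output promoters (68.8%, median 0.05) and GDC0994 at 6 of 16 (37.5%, median -0.04), against 70.7% and 57.3% of all 11393 promoter elements. GDC0994 was 0.33 above at Fosl1, which encodes the AP-1 subunit FRA1, and ranked 55 of 58 inhibitors from the lowest, while Ulixertinib was 0.23 below and ranked 11. GDC0994 was also 0.43 above at Spry4 (rank 55), where Ulixertinib was 0.19 above (rank 41). At Dusp6 GDC0994 was 0.22 below (rank 11) and Ulixertinib 0.01 above (rank 28). The SD of the other inhibitors was 0.23 at Fosl1, 0.29 at Spry4 and 0.21 at Dusp6, so each of these deviations except that of Ulixertinib at Spry4 and at Dusp6 was at or beyond 1 SD between compounds.

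The mean of the 3 MEK inhibitors, which act 1 step above ERK, lay below the other inhibitors at elements near output genes, and the ERK inhibitors did not differ from it by the test. Over all conditions the MEK inhibitors had 59 called elements, all lower (0.0997%), of which 2 were near output genes, and the output list had a median of -0.29 against -0.13 over all elements. Their promoter differences were -0.48 at Etv5 (95% CI -0.72 to -0.25, adjusted p = 0.0625), -0.5 at Spry4 (-0.75 to -0.24, adjusted p = 0.0708) and -0.31 at Dusp6 (-0.49 to -0.13, adjusted p = 0.111). The 3 MEK inhibitors did not move alike. Pimasertib was above the other inhibitors at 2 of 16 output promoters, Selumetinib at 9 and Refametinib at 7. At Dusp6 Pimasertib was 0.64 below (rank 1 of 58), while Selumetinib and Refametinib were 0.03 and 0.04 above. Without the column block, the output list had a median of -0.13 with Pimasertib, against 0.06 over all elements. The list had -0.19 with Selumetinib and -0.21 with Refametinib, which was not below their -0.26 and -0.24 over all elements. The ERK inhibitors exceeded the MEK inhibitors by 0.66 at Spry4 (95% CI 0.27 to 1.05, unadjusted p = 0.00119), 0.48 at Etv5 (0.13 to 0.84) and 0.31 at Myc (0.03 to 0.6), each with an adjusted p of 0.922. The direct comparison called 0 of 59167 elements (0%) in limma, with 2349 at an unadjusted p under 0.05 (smallest adjusted p 0.922). At Etv5 and Spry4 the intervals leave out zero before adjustment, and at Dusp6 the interval of the difference was -0.06 to 0.48.

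**Figure D3:**
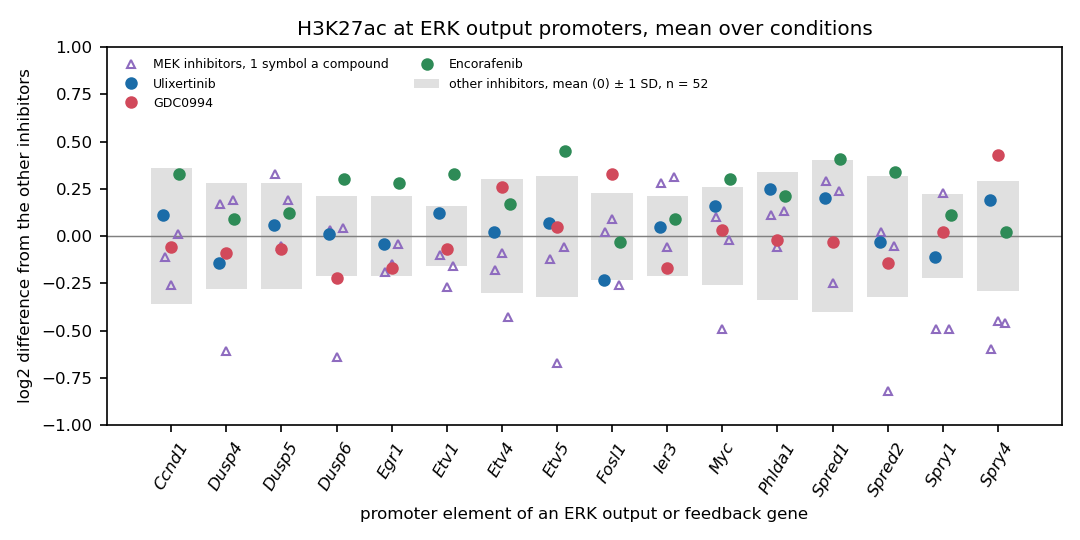
log2 difference from the mean of the other inhibitors (y axis), averaged over conditions, at the 16 promoter elements of ERK output genes (x axis), with 1 symbol a compound and grey bars for 1 SD of the 52 other inhibitors. Encorafenib is above zero at 15 of 16 promoters, and Pimasertib has the lowest MEK inhibitor values at Dusp6, Etv5 and Spred2.

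Libraries of the table lie in 6 runs of columns that share no compound (column blocks, which no label calls a batch), with Ulixertinib and Encorafenib in one and GDC0994 in another. Against the other inhibitors of its own block, with the library as the unit and a call needing a log2 difference over 0.5, Ulixertinib had 0 calls after LPS (0%) and 0 after IL-4 (0%), with 995 and 1275 elements at an unadjusted limma p under 0.05. GDC0994 had 0 after LPS (0%, 1357 unadjusted) and 1 lower after IL-4 (0.00169%). The mean of both ERK inhibitors had 0 after LPS (0%, 1828 unadjusted) and 0 after IL-4 (0%, 1694 unadjusted). The MEK inhibitors had 3124 after LPS (5.28%, of which 3111 lower) and 140 after IL-4 (0.237%, all lower). Their median over all elements was -0.18 after LPS and -0.08 after IL-4. Their libraries also had a median contrast of 31.5, against 17.3 in the other inhibitors, and the part of contrast in these calls was not tested. In that test the MEK inhibitors had 8 and 12 of the 104 elements near output genes lower and 0 higher, and the promoters of Ccnd1 (-0.72), Etv5 (-0.73) and Spred2 (-0.77) were called after IL-4. The ERK inhibitors minus the MEK inhibitors again gave 0 calls after LPS (0%, 2493 unadjusted) and 0 after IL-4 (0%, 2295 unadjusted), so the difference between the inhibitor classes was not itself past the test.

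Encorafenib lay above the other inhibitors at most ERK output promoters, and none of the differences passed the test. Averaged over its conditions it was above their mean at 15 of 16 promoters (93.8%, median 0.25), all but Fosl1, whereas it was above at 65.4% of all 11393 promoter elements (median 0.05) and at 73.1% of the 8090 promoter elements with a mean value of at least 100. With the column block in the fit the count was 14 of 16 (median 0.18), against 56.7% of all promoter elements. Among 58 inhibitors ranked from the lowest it was 57 at Dusp6, Etv5 and Etv1 and 56 at Myc. Its deviation was 0.3 at Dusp6 (SD of the other inhibitors 0.21), 0.45 at Etv5 (SD 0.32), 0.33 at Etv1 (SD 0.16) and 0.3 at Myc (SD 0.26), each beyond 1 SD between compounds. None of these promoters was called, and the fitted difference was 0.36 at Etv5 (SE 0.2, 95% CI -0.03 to 0.76), 0.21 at Dusp6 (-0.09 to 0.5) and 0.24 at Etv1 (-0.05 to 0.53), each with an adjusted p of 1. The single libraries varied between promoters. All 4 IL-4 libraries were above the other inhibitors at 8 of 16 promoters, and all 3 LPS libraries at 4 of 16. The 8 included Dusp6 (0.25 to 0.6), Etv1 (0.23 to 0.53), Etv5 (0.22 to 0.94), Ccnd1 (0.36 to 0.71) and Myc (0.2 to 0.59). At Spry1, Spry4 and Fosl1, 3 of the 4 IL-4 libraries were below the other inhibitors (-0.48 to 0.11, -0.86 to 0.38 and -0.37 to 0.13). After LPS all 3 libraries were above at Dusp6 (0.04 to 0.43) and Etv1 (0.26 to 0.45) but not at Etv5 (-0.13 to 0.43). Whether the deviation differed between the stimuli was not tested. At Etv5 Encorafenib had 366 unstimulated and 401, 411, 298 and 202 over the IL-4 times, against 259 and 287 unstimulated and 352 and 350, 378 and 319, 325 and 322, and 152 and 215 in DMSO. The Encorafenib values lay above both DMSO libraries unstimulated and at 30 min and 1 h of IL-4, below both at 2 h and between them at 4 h.

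Across all elements at most 1 was called for Encorafenib against the other inhibitors, with all conditions averaged, after LPS, after IL-4 or unstimulated. With its conditions averaged it had 0 called of 59167 elements (0%, limma, 1020 at an unadjusted p under 0.05), and the unstimulated and IL-4 comparisons also had 0 (0% each, 791 and 887 unadjusted). As Encorafenib is 1 compound, its own spread was assumed to be that of the other inhibitors. After LPS 1 element was lower (0.00169%), an intergenic element 163.4 kb from the start of Dmrta1, the nearest protein-coding start (chr4:89524002-89525639). Its value was 83, 22 and 0 at 30 min, 1 h and 2 h with Encorafenib, against medians of 71.5, 62 and 71 in the other inhibitors and 51 and 69, 89 and 94, and 85 and 60 in DMSO. The first value lay above both DMSO libraries and inside the range of the other inhibitors, and the 0 lay below all others at 2 h. The difference was -1.59 (SE 0.29, 95% CI -2.17 to -1.02, adjusted p = 0.0415), and it was -0.49 with an adjusted p of 0.867 without the 2 h library. At the depth of the 1 h and 2 h libraries 1 read was worth 7.44 and 5.59 units, so 22 and 0 stand for a few reads and none.

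The LPS count for Encorafenib rested on which libraries were used. Taken alone (a choice made after seeing the data), the 30 min library had 0 calls (0%, 4037 unadjusted), the 1 h library had 93 (0.157%, of which 90 lower) and the 2 h library had 15, all lower (0.0254%). The 1 h and 2 h libraries are those with the lowest contrast and reads, and their part in the result was not tested. Leaving out the 30 min library gave 1044 calls, leaving out the 1 h library 9, and leaving out the 2 h library 41. Against its own column block Encorafenib had 2 lower elements after LPS (0.00338%, 1329 unadjusted) and 0 after IL-4 (0%, 2363 unadjusted). The first was in an intron of Prkce, a protein kinase C gene (chr17:86236824-86238371), with 20, 0 and 11 at the 3 LPS times. Its difference from the block was -1.96 (SE 0.37, limma adjusted p = 0.0173). The medians of the other inhibitors of all blocks were 47, 40 and 34. The second was intergenic, 80.0 kb from the start of Tmem68 (chr4:3493728-3495418), with 142, 0 and 45. Its difference from the block was -2.11 (SE 0.42, limma adjusted p = 0.0353), and the medians over all blocks were 151, 152 and 136. DMSO had 36 and 22, 14 and 17, and 24 and 9 at the Prkce element, so Encorafenib was not below DMSO at every time there. Each single IL-4 time of Encorafenib had 0 calls (0%, limma), with 816, 565, 800 and 1726 elements at an unadjusted p under 0.05 from 30 min to 4 h.

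Single elements were also called for the ERK inhibitors. Taken time by time, they had 0 calls at 30 min, 1 h and 4 h of LPS (0% each, 552, 656 and 846 unadjusted) and at every IL-4 time (0% each, 1066, 1405, 1591 and 1160 unadjusted), and 1 lower element at 2 h of LPS (0.00169%). It lies in an intron of Gm42906, 82.2 kb from the start of Stard13 (chr5:151315171-151316843), and gains H3K27ac after LPS in DMSO cells. Its value there was 8 with Ulixertinib and 4 with GDC0994, against 19 to 126 (median 44) in the other inhibitors, 33 and 38 in DMSO, 23, 16 and 25 with the MEK inhibitors and 78 with Encorafenib (-2.33, SE 0.38, 95% CI -3.1 to -1.56, adjusted p = 0.00819). In these libraries 1 read was worth 1.55 units with Ulixertinib and 4.04 with GDC0994, so 8 and 4 stand for very few reads. Both ERK inhibitors were below every other inhibitor at 2 h only. At 30 min they had 33 and 50 against a median of 54.5, at 1 h 45 and 52 against 48, and at 4 h 33 and 46 against 34.5. The GDC0994 element called after IL-4 overlaps the promoter of Ralgps1, a Ral guanine exchange factor gene (chr2:33370358-33372365, centre in the UTR). GDC0994 differed there from the other inhibitors of its own block by -1.62 (SE 0.31, limma adjusted p = 0.0196). The medians of the other inhibitors of all blocks were 29.5, 32, 32 and 32, and Ulixertinib had 22, 32, 28 and 36. The GDC0994 values were 13, 20, 0 and 9. These are low values, and with LPS the same library series gave 42, 45, 28 and 25.

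Other pathways showed no called element in the comparison with the other inhibitors. The ERK inhibitors had 0 called in the immediate early list (123 elements, median 0.01), the RAS-RAF-MEK-ERK cascade list (115, -0.01), the LPS cytokine list (113, -0.01), the interferon-stimulated list (41, 0.05), the NF-kB feedback list (115, 0.02), the IL-4 response list (84, 0.01), the cell cycle list (51, 0.02) and the integrated stress response list (50, 0.02). All of these medians lay within 0.06 of that of all elements. Encorafenib had its lowest medians in the interferon-stimulated list (-0.15), the LPS cytokine list (-0.08) and the NF-kB feedback list (-0.08), against -0.04 over all elements, with 0 called. Fos, the first of the immediate early genes, had 577, 614 and 639 after 30 min of LPS with Ulixertinib, GDC0994 and Encorafenib, against 470 and 478 in DMSO and a median of 438 in the other inhibitors. All 3 compounds were above DMSO there and inside the range of the other inhibitors, which reached 731. Mapk3, which encodes an ERK kinase, had 338 unstimulated with Ulixertinib, 233 and 218 with GDC0994 and 301 with Encorafenib, against 241 and 250 in DMSO and a median of 266.5.

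Against DMSO most called elements were higher with each of the 3 compounds in the values as deposited, and the count of calls depended on the scaling and on single sets of DMSO libraries. After LPS 558 elements were lower and 12450 higher with Ulixertinib (0.943% and 21% of 59167), 1635 and 20935 with GDC0994 (2.76% and 35.4%), and 2254 and 17548 with Encorafenib (3.81% and 29.7%), in limma with the library as the unit. After IL-4 they were 1029 and 9982 with Ulixertinib (1.74% and 16.9% of 59155), 2410 and 29952 with GDC0994 (4.07% and 50.6%), and 645 and 4772 with Encorafenib (1.09% and 8.07%). Leaving out the DMSO libraries with replicate number 1 or 2 lowered the LPS total from 13008 to 5581 or 4088 with Ulixertinib, and from 22570 to 16008 or 14129 with GDC0994. After IL-4 it lowered the total from 11011 to 3593 or 4032 with Ulixertinib, and from 5417 to 1051 or 979 with Encorafenib. The Encorafenib LPS total of 19802 fell to 12831 without DMSO replicate 2, to 2461 without its own 1 h library and to 6399 without its own 2 h library. The median of all elements was shifted by 0.44, 0.54 and 0.48 after LPS and by 0.36, 0.68 and 0.3 after IL-4 on the log2 scale, in the same order, and changes are read against this shift. After quantile normalization, which gives all libraries 1 distribution, the medians were within 0.01 of zero. The LPS counts were then 16 lower and 65 higher for Ulixertinib (0.027% and 0.11%), 94 and 129 for GDC0994 (0.159% and 0.218%), and 771 and 447 for Encorafenib (1.3% and 0.755%). The IL-4 counts were 220 and 164 for Ulixertinib (0.372% and 0.277%), 2195 and 1817 for GDC0994 (3.71% and 3.07%), and 71 and 79 for Encorafenib (0.12% and 0.134%). The split between lower and higher turned with the scaling in Encorafenib after LPS and in Ulixertinib and GDC0994 after IL-4. Without both its LPS 1 h and 2 h libraries, the lowest in contrast, only the Encorafenib 30 min library is left after LPS. No count against DMSO is given for that fit, as it cannot separate the loss of these libraries from the loss of their times. DMSO had the higher contrast in every one of these comparisons, and the part of contrast in them was not tested.

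**Figure D4:**
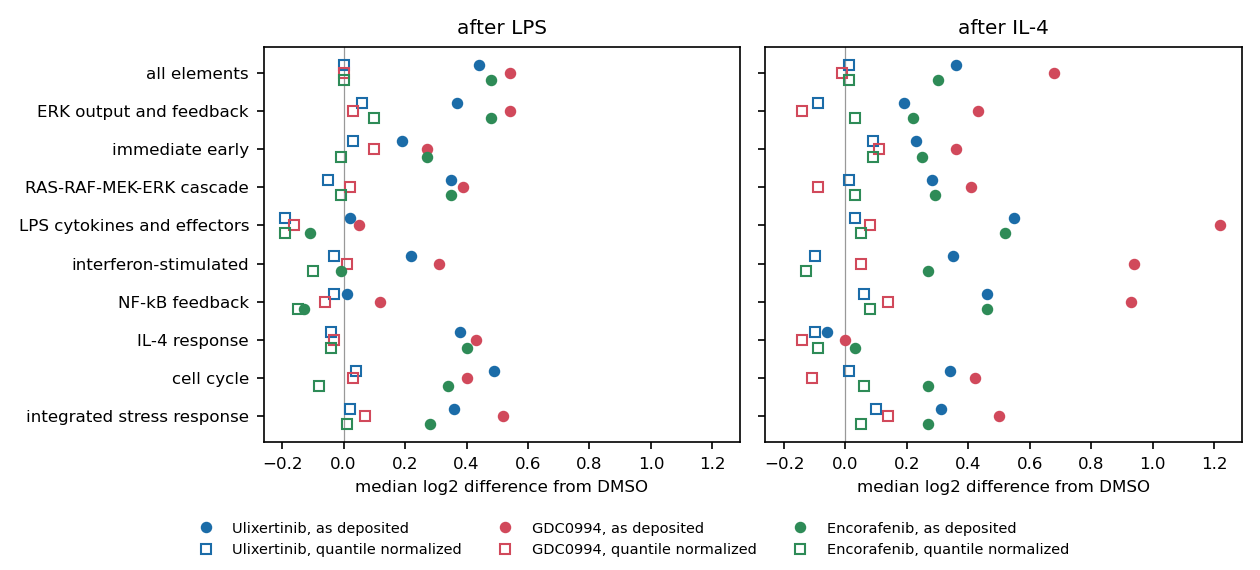
Median log2 difference from DMSO (x axis) of all elements and of each gene list (y axis), after LPS (left) and IL-4 (right), for the 3 compounds, with filled circles for the values as deposited and open squares after quantile normalization. For GDC0994 after IL-4 the LPS cytokine list is at 1.22 as deposited, where all elements are at 0.68, and at 0.08 after quantile normalization.

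Most gene lists had medians near that of all elements in each scaling, and the lists furthest from it belonged to GDC0994 after IL-4. Over all elements 4.07% were lower and 50.6% higher there as deposited, and 3.71% and 3.07% after quantile normalization. The LPS cytokine and effector list had 3 elements lower and 73 higher of 113 (2.65% and 64.6%, median 1.22) and 6 lower and 12 higher after quantile normalization (5.31% and 10.6%, median 0.08). The NF-kB feedback list had 2 lower and 75 higher of 115 as deposited (1.74% and 65.2%, median 0.93), and 2 and 17 after quantile normalization (1.74% and 14.8%, median 0.14). The ERK output list had 10 lower and 41 higher of 104 as deposited (9.62% and 39.4%, median 0.43), and 12 lower and 4 higher after quantile normalization (11.5% and 3.85%, median -0.14). Its median was below that of all elements in both scalings, and its share of higher elements was below the share over all elements as deposited. The IL-4 response list had 16 lower and 21 higher of 84 as deposited (19% and 25%, median 0), and 8 and 2 after quantile normalization (9.52% and 2.38%, median -0.14). With Ulixertinib and Encorafenib the quantile-normalized IL-4 counts were 0 lower and 0 higher in the ERK output list and the LPS cytokine list, and the medians of the ERK output list were -0.09 and 0.03.

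Named promoters that passed against DMSO in both scalings were found mainly with GDC0994 after IL-4. Of 117 listed promoter elements, 8 were lower (Araf, Arg1, Ccl2, Ccnd1, Etv1, Mknk1, Oas2 and Tfec) and 7 higher (Csf2, Fosl1, Il12b, Mcm5, Nfkb2, Nos2 and Tnip1). Over all 11392 promoter elements 2.7% were lower and 1.49% higher in both scalings, and over all 59155 elements 1.88% and 2.74%. The call of Ccl2 (-0.76, adjusted p = 0.0324) was lost without DMSO replicate 1 (adjusted p = 0.063) or 2 (0.0889). Mknk1 fell under the log2 difference of 0.5 that a call needs without the GDC0994 IL-4 1 h library (-0.43), and Nfkb2 did without that library (0.45) or DMSO replicate 2 (0.43). Ulixertinib had Tfec lower after IL-4 (0.272% of all promoter elements were lower in both scalings) and Encorafenib had Isg15 lower after LPS (0.702%), and the other 3 comparisons had none in both scalings. Arg1, the arginase gene that marks IL-4 activation (chr10:24926716-24929154), had 370, 310, 367 and 280 over the IL-4 times with GDC0994. It had 407, 534, 531 and 397 with Ulixertinib and 523, 576, 445 and 466 with Encorafenib. DMSO had 692 and 604, 654 and 656, 671 and 747, and 617 and 564, and the medians of the other inhibitors were 437, 438, 437.5 and 355. Every value of the 3 compounds was below both DMSO libraries of its time, and the unstimulated values of the 3 compounds and DMSO were 96 to 164. GDC0994 differed from DMSO by -0.97 (SE 0.13, adjusted p = 2.88e-09), and by -0.74 after quantile normalization (adjusted p = 4.17e-05).

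Tfec, a MiT family transcription factor gene that IL-4 induces in macrophages (chr6:16897681-16899478), was lower with GDC0994 by 1.42 and with Ulixertinib by 1.12 on the log2 scale. Its IL-4 values were 170, 86, 112 and 71 with GDC0994, 148, 155, 133 and 90 with Ulixertinib, and 188, 196, 137 and 144 with Encorafenib, against 320 and 379, 268 and 297, 229 and 304, and 265 and 252 in DMSO. The groups did not overlap at any IL-4 time, and the medians of the other inhibitors (168.5, 157, 122 and 111) lay with the 3 compounds. The gap to DMSO was present in unstimulated cells, with 127, 120 and 109, and 115 against 193 and 216 in DMSO. It was also present after LPS, where Ulixertinib had 170, 112, 188 and 96 and GDC0994 had 112, 122, 129 and 103. Encorafenib had 166, 89 and 112 there, and DMSO 287 and 369, 273 and 224, 341 and 306, and 183 and 178. After LPS the difference passed in the values as deposited (-0.92 with Ulixertinib, -1.14 with GDC0994 and -1.19 with Encorafenib) but not after quantile normalization (adjusted p = 0.728, 0.146 and 0.0685). On the log2 scale the fitted difference after IL-4 was -1.42 (SE 0.23, adjusted p = 3.59e-07) for GDC0994 and -1.12 (SE 0.23, adjusted p = 0.000537) for Ulixertinib.

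Tnip1, which encodes an NF-kB inhibitor (chr11:54952089-54959611), was higher with GDC0994 after IL-4, at 509, 567, 590 and 697 against 362 and 343, 378 and 341, 365 and 409, and 426 and 402 in DMSO (0.63, SE 0.11, adjusted p = 1.69e-06). Nfkb2, the p100 NF-kB subunit gene (chr19:46303097-46306938), had 486, 581, 500 and 592 against 356 and 282, 411 and 347, 452 and 399, and 376 and 411 (0.51, SE 0.12, adjusted p = 0.000219). At both genes the GDC0994 values were above both DMSO libraries at all 4 times. So were those of Ulixertinib and Encorafenib, and the medians of the other inhibitors. These medians were 451, 471, 483.5 and 514 at Tnip1, and 405.5, 436, 525.5 and 534 at Nfkb2. In unstimulated cells GDC0994 had 485 and 607 at Tnip1, against 376 and 381 in DMSO. At Nfkb2 it had 342 and 348 there, against 379 and 408. Il12b, the p40 cytokine subunit gene (chr11:44398328-44400777), had 62, 66, 58 and 76 against 14 and 16, 7 and 8, 4 and 11, and 3 and 12, and the other inhibitors had medians of 41, 39, 34 and 33 at this near-silent promoter.

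None of the 15 promoters passed the test of GDC0994 against the other inhibitors of the same column block. After IL-4 GDC0994 differed from them by -0.13 at Arg1 (SE 0.12), -0.05 at Tfec (SE 0.2), 0.2 at Tnip1 (SE 0.1), 0.34 at Nfkb2 (SE 0.11, adjusted p = 0.662), -0.65 at Araf (SE 0.21, adjusted p = 0.703) and -0.42 at Ccnd1 (SE 0.2). It differed by 0.44 at Mcm5 (SE 0.16, adjusted p = 0.981), 0.54 at Nos2 (SE 0.37), 0.4 at Il12b (SE 0.33), 0.39 at Csf2 (SE 0.37), 0.32 at Fosl1 (SE 0.24), -0.24 at Etv1 (SE 0.15), -0.2 at Ccl2 (SE 0.27), -0.16 at Mknk1 (SE 0.13) and -0.14 at Oas2 (SE 0.12). Araf, which encodes a RAF kinase (chrX:20847588-20849306), had 54, 66, 43 and 33 with GDC0994 after IL-4, against 79 and 96, 109 and 99, 97 and 77, and 81 and 101 in DMSO and medians of 80.5, 91, 91 and 96 in the other inhibitors. All 4 were below DMSO and below those medians, and the mean over the IL-4 times was 0.75 below the other inhibitors (SD 0.26), the lowest of 58 inhibitors.

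Isg15, an interferon-stimulated gene (chr4:156199608-156201686), had 211, 186 and 291 at 30 min, 1 h and 2 h of LPS with Encorafenib, against 208 and 304, 520 and 545, and 770 and 796 in DMSO. Encorafenib lay between the DMSO libraries at 30 min and below both at the later times. The difference was -1.06 (SE 0.22, adjusted p = 0.000268), and -0.4 without the 1 h and 2 h libraries. That fit leaves only the 30 min library, when DMSO itself had 208 and 304, so it cannot show what the later libraries contribute. Ulixertinib had 302 and 486 and GDC0994 had 386 and 517 at 1 h and 2 h, and the other inhibitors had medians of 327 and 451.

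The response to the stimulus itself was smaller with each compound than in DMSO at the elements that DMSO cells regulate, except with Ulixertinib at 30 min of IL-4 at the IL-4-lower elements (-0.49 against -0.46). LPS regulated 27126 of 50697 elements tested in DMSO (14679 higher, 12447 lower) and IL-4 regulated 11607 of 47018 (6415 higher, 5192 lower), at an adjusted p under 0.01 and a log2 change over 1. As these elements were chosen in the DMSO libraries, the DMSO value is favoured, and the compounds are read against the other inhibitors. At the LPS-higher elements the median log2 change from unstimulated cells at 30 min, 1 h, 2 h and 4 h was 1.12, 1.35, 1.52 and 1.45 in DMSO, 0.67, 0.82, 1 and 0.78 with Ulixertinib, and 0.36, 0.61, 0.73 and 0.84 with GDC0994. Encorafenib had 0.61, 1.08 and 1.12 at the first 3 times, and the medians of the other inhibitors were 0.71, 0.85, 0.89 and 0.91. GDC0994 ranked 8 of 58 inhibitors at 30 min and 9 of 57 at 1 h from the smallest, and Encorafenib ranked 53 of 57 at 1 h. That Encorafenib library had a contrast of 6.44, the lowest of the members, against 27.9 in its unstimulated library. At the LPS-lower elements the same library ranked 51 of 57 from the most negative change (-0.65), so its loss was among the smaller ones. The part of contrast in these ranks was not tested. At the IL-4-higher elements Ulixertinib had 0.64, 0.69, 0.71 and 0.73, GDC0994 0.72, 0.74, 0.75 and 0.57, and Encorafenib 1, 0.89, 0.87 and 0.71, against 1.36, 1.27, 1.21 and 1.19 in DMSO and medians of 0.85, 0.93, 0.79 and 0.7 in the other inhibitors. At the LPS-lower elements the changes were -0.71, -0.84, -0.98 and -1.01 with Ulixertinib, -0.63, -0.77, -1.01 and -0.82 with GDC0994, and -0.79, -0.65 and -0.86 with Encorafenib, against -1.04, -1.19, -1.45 and -1.2 in DMSO and medians of -0.71, -0.83, -1.01 and -0.87. At the IL-4-lower elements they were -0.49, -0.7, -0.96 and -0.7, then -0.33, -0.45, -0.7 and -0.71, and -0.32, -0.61, -0.87 and -0.75 in the same order of compounds, against -0.46, -0.92, -1.19 and -1.06 in DMSO and medians of -0.34, -0.55, -0.81 and -0.7. All values of the 3 compounds lay inside the range of the other inhibitors at the 4 element sets. Each is a ratio to the compound's own unstimulated library, and for Encorafenib and Ulixertinib that is a single library.

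**Figure D5:**
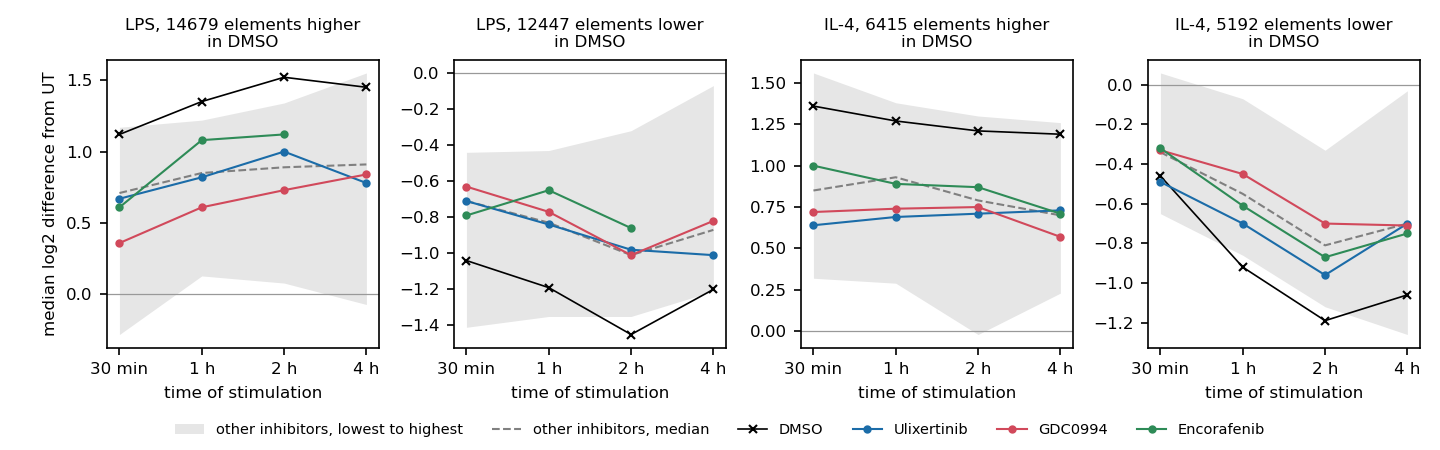
Median log2 difference from unstimulated cells of the same compound (y axis) against time of stimulation (x axis) at elements that LPS or IL-4 raised or lowered in DMSO, with lines for DMSO and the 3 compounds and the range and median of the other inhibitors in grey. At the LPS-higher elements and 30 min the lines stand at 1.12 for DMSO, 0.67 for Ulixertinib, 0.61 for Encorafenib and 0.36 for GDC0994.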

How the data were processed

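H3K27ac ChIP-seq of mouse macrophages was sequenced as single-end reads by the authors, who removed adapters, trimmed reads to 51 bases, mapped them to mm10 with ShortStack and counted them around ATAC-seq summits. The submitters' processing notes also name Bowtie and SAMtools. The deposited values are whole numbers that the authors scaled by invariant peaks, so they were treated as a normalised score and given no count model. The table holds 59190 elements (median width 1652 bp) and has 0 sample columns left unused. Values were tested as log2(value + 5) with limma 3.58.1 in R 4.3.3 (empirical Bayes with a trend), over elements with a mean of at least 10, with Benjamini-Hochberg adjustment at 0.05. The log2 scale understates changes of low values. In the main comparison the compound, averaged over its conditions, was the unit and the column block a covariate; comparisons with DMSO and within a block used the library, with time as a covariate, and called a log2 difference over 0.5. Promoter elements have their centre within 1 kb of a GENCODE vM21 transcription start; gene lists hold elements whose nearest protein-coding start, within 50 kb, is that of a listed gene. Named genes are the promoters of listed genes and up to 10 called elements in each direction. Members and gene lists were chosen with earlier results of these data known. The scripts were tested on simulated data. Alternatives in pseudocount, filter, scaling, block, covariate and libraries were tried, and those for single libraries, single times and the library as the unit were chosen after seeing the data.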

Additional observations from a re-analysis of the deposited data

How the results depend on the processing

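The comparisons of the ERK inhibitors with the other inhibitors (all conditions, LPS, IL-4, unstimulated), with the MEK inhibitors, and of LPS with IL-4 effects kept 0 calls under every alternative run, except that LPS 2 h taken alone gave 1. The ERK promoter differences changed sign at Etv4 (0.03 with quantile normalization, 0.14 without the column block, 0.01 with contrast as a covariate), Myc (-0.02 with quantile normalization), and, without the block, Spred1 (0.09), Etv1 (0.03), Phlda1 (0.12), Fosl1 (0.05) and Ccnd1 (0.02). Without either ERK inhibitor in turn the values spanned -0.16 to 0.06 at Fosl1, -0.03 to 0.06 at Myc, -0.02 to 0.01 at Etv5, -0.09 to 0.04 at Etv1, -0.12 to 0.03 at Etv4, -0.19 to 0.14 at Phlda1 and -0.28 to 0.14 at Ccnd1. Encorafenib after LPS had 13 calls with pseudocount 1, 0 with pseudocount 20, 5 with a mean of at least 50, 16 with quantile normalization, 0 without the column block, 14 with contrast as a covariate, 2 with the library as the unit, 0, 93 and 15 at 30 min, 1 h and 2 h alone, and 9 to 1044 with 1 of its libraries left out. The cause was not tested.

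Against DMSO the calls for Ulixertinib, GDC0994 and Encorafenib after LPS were 1717, 5123 and 3627 with a mean of at least 50 and 81, 223 and 1218 with quantile normalization. After IL-4 they were 3876, 9704 and 2030, and 384, 4012 and 150. Pseudocount 20 gave 7061 for Ulixertinib after LPS, and 4538 and 1625 for Ulixertinib and Encorafenib after IL-4, and pseudocount 1 gave 9392 for Encorafenib after IL-4. A fit of only the 3 compounds and DMSO gave 23379 for Ulixertinib after LPS, and 22436 and 18028 for Ulixertinib and Encorafenib after IL-4. All DMSO libraries of replicate number 1 or 2 were left out in turn. In separate settings 1 library was left out, the Encorafenib LPS 1 h or 2 h or the GDC0994 IL-4 1 h library. Over these settings the counts after LPS were 4088 to 5581 for Ulixertinib, 14129 to 16008 for GDC0994 and 2461 to 14185 for Encorafenib. After IL-4 they were 3593 to 4032, 27828 to 29719 and 979 to 1051. The lowest LPS values came without DMSO replicate 2 for Ulixertinib and GDC0994 and without the LPS 1 h library for Encorafenib (6399 without LPS 2 h). Without both the LPS 1 h and the LPS 2 h library, only 1 Encorafenib library is left after LPS. No count is given for that fit, as it cannot separate the loss of these libraries from the loss of their times. A lone DMSO library per condition was assumed to vary like the others. Ccl2 lost its call with GDC0994 after IL-4 without DMSO replicate 1 (adjusted p = 0.063) or 2 (0.0889), Nfkb2 without DMSO replicate 2 (0.43) or the GDC0994 IL-4 1 h library (0.45), and Mknk1 without that library (-0.43), the last 2 genes by falling under a log2 difference of 0.5.

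LPS-regulated elements in DMSO numbered 16940 with a mean of at least 50, and 24327 to 27360 with 1 library left out. IL-4-regulated elements numbered 7567 with pseudocount 20, 7233 with a mean of at least 50, 6280 with quantile normalization, and 10198 to 11864 with 1 library left out. The replicate numbers of DMSO did not pair the libraries: the deviations of 36 pairs of conditions correlated at -0.07 to 0.05, and the replicate block gave 27065 and 11607 elements. Of the other alternatives, 155 counts stayed within 1.5 times and 197 single values kept their direction and their call.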
